A study of Arabidopsis thaliana with 6 samples.

Results

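The set of transcripts described here consists of 150 probe sets whose level was moderately higher after heat in darkness, out of 22746 probe sets of Arabidopsis thaliana other than the array's own controls. Each probe set of an Affymetrix array combines several short oligonucleotides that match the same transcript. Members were chosen by the difference itself. The mean of the 3 heat arrays minus the mean of the 3 control arrays had to be at least 1.5 and under 3 on the log2 scale, and the lowest heat array had to lie above the highest control array. Of all probe sets, 153 (0.673%) met the size and overlap conditions, 2 of them were left out as mitochondrial and 1 as a heat shock protein by the authors' symbol or title. Since the members were selected on this contrast, their values below are a description and carry no test.

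Total RNA was taken from whole seedlings of the accession Col-0, a standard laboratory strain, raised on agar plates at 23 °C with 16 h of light a day, after 72 h at 4 °C in darkness. The heat group was held at 37 °C for 30 min in darkness, and the control group was kept in darkness with no heat treatment. Each group had 3 arrays. The labels give the seedlings an age of 19, 20 and 21 days for heat replicates 1, 2 and 3, and of 16, 17 and 18 days for control replicates 1, 2 and 3, while the design text gives 10 days for the study. If the labelled ages hold, age and treatment cannot be told apart, since every heat age is above every control age. The groups treated in light that the design text names were not analysed here. The labels do not say whether replicates were separate cultures of plants, so the spread between arrays may be technical.

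Plants meet heat with a transcriptional program in which heat shock factors switch on chaperones, proteins that hold or refold unfolded proteins. Around this core lie co-chaperones that steer substrates to the large chaperones, proteases and ubiquitin ligases that clear damaged proteins, transcription factors that pass the signal on, splicing factors, and enzymes that remodel membranes and carbon use. The upper limit on the difference and the exclusion by name kept some of this core out of the members, but a few chaperones remained and are named below.

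The labels were checked first. HSP101, a disaggregase that serves as a marker of heat treatment, had 11.03, 11.13 and 10.90 log2 units on the heat arrays, against 2.96, 2.30 and 3.24 on the control arrays. The brightest Rubisco small subunit probe set lay at the top of the control arrays, and it marks green tissue. Other probe sets annotated to the same gene stood at the 89.5th, 60.5th and 39.1th percentile of control means. Flower genes AP3 and AG and the seed storage gene CRA1 stood between the 3.31th and the 14.2th percentile of control means. The root hair genes EXPA7, COBL9 and PRP3 stood between the 42.8th and the 44.8th percentile, and the root gene SCR at the 67.2th. In the limma fit over all probe sets, 533 (2.34%) were higher after heat and 909 (4.00%) were lower at an adjusted p under 0.05. With other scalings of the arrays, the share of these calls that were higher moved to 49.7% (centring on array medians), 43.7% (quantile normalization) and 50.9% (cyclic loess), against 37.0% as deposited.

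The 150 members had differences between 1.5 and 2.98, with a median of 2.05, and 80 of them differed by at least 2. The median difference of all probe sets was -0.01. Groups without overlap in this direction were common among all probe sets (2375, or 10.4%), and the overlap condition removed no probe set of the required size. The lowest heat array stood above the highest control array by 0.44 to 2.71, with a median of 1.58, and by at least 1 for 132 members. Of the members, 148 were also called higher by limma, as were 2.34% of all probe sets, which restates the choice and is no support for it. The exceptions were the probe set of AT5G57910 and the one shared by AT2G09970 and AT1G72510.

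**Figure D1:**
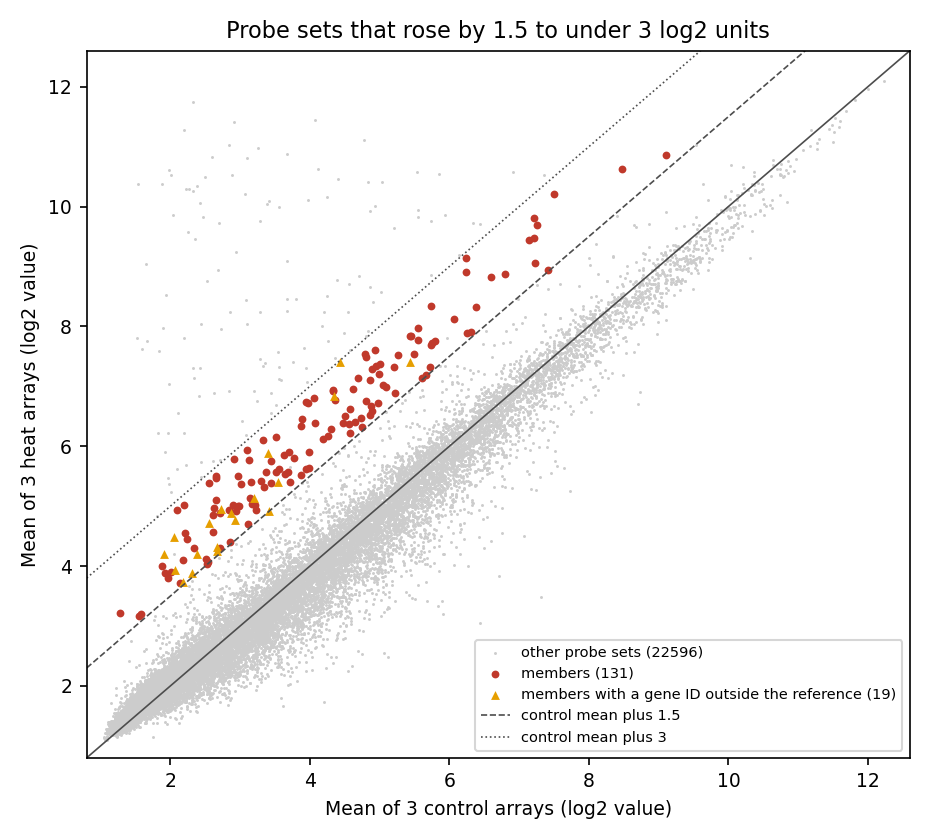
Mean log2 value of the 3 heat arrays (vertical) against the mean of the 3 control arrays (horizontal) for 22746 probe sets; grey points are the 22596 other probe sets, red points 131 members and orange triangles the 19 members with a gene ID outside the reference table. By their choice the members fill the band between the dashed line (control plus 1.5) and the dotted line (control plus 3), and they do so from a control mean of 1.28 to one of 9.11.

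The control means of the members had a median of 3.87, the 64.1th percentile of all probe sets, and 110 of 150 lay above the median probe set. After heat their means had a median of 5.92, the 87.7th percentile. Probes differ in brightness, so these percentiles only place a value on the scale of the array and do not rank the genes. At the upper end of that scale, AT5G54940 had 10.88, 10.77 and 10.96 on the heat arrays, against 8.91, 9.23 and 9.19 on the control arrays. Near the lower end, AT4G19430 had 3.77, 2.88 and 3.01 on the heat arrays, against 1.18, 1.55 and 1.12 on the control arrays. At that end a level cannot be told from background, because the files gave no detection call. RNA came from whole seedlings, so a change in the number of cells of a type and a change in RNA per cell cannot be told apart for any member.

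Among the members, 125 probe sets pointed to 1 gene of the reference table, 5 to several genes, and 1 had no gene ID. The other 19 carried at least 1 gene ID that the reference table did not hold, and they are described apart. Of the 125 genes, 71 had a symbol other than their locus and 54 did not, although the table lists synonyms with a name for a few of the 54.

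Proteins that fold or remodel other proteins were one functional group. J3 and J2 are the cytosolic J-domain co-chaperones that deliver substrates to HSP70. J3 had 9.61, 9.74 and 9.73 on the heat arrays, against 7.35, 7.19 and 7.24 on the control arrays, a difference of 2.44. J2 had 7.72, 7.87 and 7.66 after heat, against 5.91, 5.42 and 6.05 in controls, a difference of 1.96. Neither gene had an array within 1.5 log2 units of the other group. Hop2, of the family of adaptors that link HSP70 to HSP90, had 7.82, 8.08 and 8.05 after heat, against 5.81, 5.22 and 5.64 in controls, and differed by 2.42.

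Cpn60beta2, a subunit of the chaperonin that folds proteins inside the chloroplast, had 10.20, 10.25 and 10.16 after heat, against 7.08, 7.95 and 7.46 in controls, a difference of 2.71. FKBP53, a nuclear prolyl isomerase and histone chaperone, had 7.61, 7.93 and 7.30 after heat, against 5.50, 4.32 and 5.01 in controls. Its difference of 2.67 rested on a control group that spread over more than 1 log2 unit. TPR2, a tetratricopeptide repeat protein, had 4.45, 5.03 and 4.19 after heat, against 2.25, 2.15 and 2.23 in controls.

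The CDC48 proteins are ATPases that pull ubiquitin-tagged proteins out of complexes and membranes. AtCDC48B had 6.68, 7.09 and 6.64 after heat, against 4.45, 3.50 and 4.22 in controls, a difference of 2.75. AtCDC48C had 6.44, 6.65 and 6.25 after heat, against 4.33, 3.49 and 3.86 in controls, a difference of 2.56. In both genes control replicate 2 was the lowest array and heat replicate 2 the highest. PUX5, whose UBX domain binds CDC48, had 7.0, 6.92 and 6.87 after heat, against 4.51, 4.27 and 4.21 in controls, with a difference of 2.60 and little spread in either group.

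A list of 81 probe sets for J-domain, immunophilin and other chaperone-related proteins held 5 members (J3, J2, Cpn60beta2, FKBP53 and TPR2). This list and those below were gathered by words in gene symbols, synonyms and titles. The authors' title was empty for 66.3% of all probe sets and 60.7% of members, so lists can miss genes of a family. Hop2, for example, was not in this list. Words can also match inside unrelated names, and list counts describe the listed probe sets only. In the limma fit, 15 of the 81 were higher, 2 were lower and 64 did not pass, and the median of the list was -0.07, close to that of all probe sets. Among those higher, 5 had differences of at least 3, namely BAG6 (8.64), AT5G48570 (7.97), ROF1 (4.27), AR192 (4.17) and TPR10 (3.77). The mitochondrial co-chaperonin CPN10 had a smaller one (1.0). The 2 lower ones were BAG1, with a difference of -1.04, and the cyclophilin ROC3, with -0.50. The lower count depended on single arrays: omitting control replicate 2 gave 8, omitting heat replicate 3 gave 0, and omitting control replicate 1 or either other heat array gave 1.

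The names in the reference table showed that 4 members were heat shock proteins whose symbol and title cells in the authors' table were empty, so that the exclusion did not reach them. The probe set shared by Hsp70-15 and HSP91 differed by 2.39, and Hsp89.1, an HSP90 of organelles, by 2.24. The probe set shared by Hsp81.4 and HSP81-3, which encode cytosolic HSP90, had 10.72, 10.73 and 10.44 after heat, against 9.07, 7.85 and 8.50 in controls, a difference of 2.16. Hsp70-2 differed by 1.93. These 4 kept their place by the letter of the rule, and they are left out in a count given further on.

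Members that act in protein breakdown covered proteases, ubiquitin ligase parts and an inhibitor. DEG14, a Deg-type serine protease, had 5.31, 6.04 and 5.08 after heat, against 2.78, 2.71 and 2.48 in controls, a difference of 2.82. The mitochondrial membrane protease ftsh4 had 6.90, 6.95 and 6.97 after heat, against 4.38, 4.05 and 4.55 in controls. Its 3 heat arrays lay within 0.1 log2 units of each other, and its difference was 2.61. The opposite activity was represented by AT4G16500 (CYS4), an inhibitor of cysteine proteases, which had 7.82, 8.01 and 7.87 after heat, against 6.27, 6.15 and 6.50 in controls.

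SKP2B, an F-box protein that selects substrates for ubiquitination, had 5.74, 6.12 and 5.47 after heat, against 2.94, 2.70 and 3.10 in controls. Its difference of 2.87 was among the largest of all members. AT2G44130 (KMD3), an F-box protein of the KISS ME DEADLY group known for turning over regulators of cytokinin response, had 7.63, 7.46 and 7.4 after heat, against 5.37, 3.95 and 5.08 in controls. SK18, a SKP1-like adaptor that joins F-box proteins to the ligase, differed by 1.81. The ubiquitin-conjugating enzyme UBC11 differed by 1.52, and FUS5, a subunit of the COP9 signalosome that regulates these ligases, by 1.64.

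Of 529 probe sets gathered by ubiquitin and proteasome words, 12 were higher, 30 were lower and 487 did not pass. That list held 5 members (SKP2B, SK18, UBC11, FUT12 and GA3OX1), the last 2 of which matched only by letters inside another word of their annotation. Other entries of the list may have matched in the same way, so its counts are not those of ubiquitin and proteasome genes alone. Of 299 probe sets gathered by protease and autophagy words, 5 were higher, 2 were lower and 292 did not pass. In that list ftsh4 was the only member, since the words missed DEG14. Both lists depended on control replicate 2, without which 89 of the ubiquitin list and 22 of the protease list were lower. Omitting any other single array gave 9 to 18 lower in the ubiquitin list and 0 to 2 in the protease list, where the higher count was also 3 without heat replicate 1 or 3.

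PMZ (SAP12) and SAP10 belong to the stress-associated proteins, small zinc finger proteins that many stresses induce. PMZ had 4.55, 5.55 and 4.98 after heat, against 2.29, 2.42 and 1.86 in controls, a difference of 2.83. SAP10 had 4.64, 5.44 and 5.25 after heat, against 2.59, 3.06 and 2.32 in controls, a difference of 2.45. In both, the heat arrays were widely spread and heat replicate 2 was the highest.

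**Figure D2:**
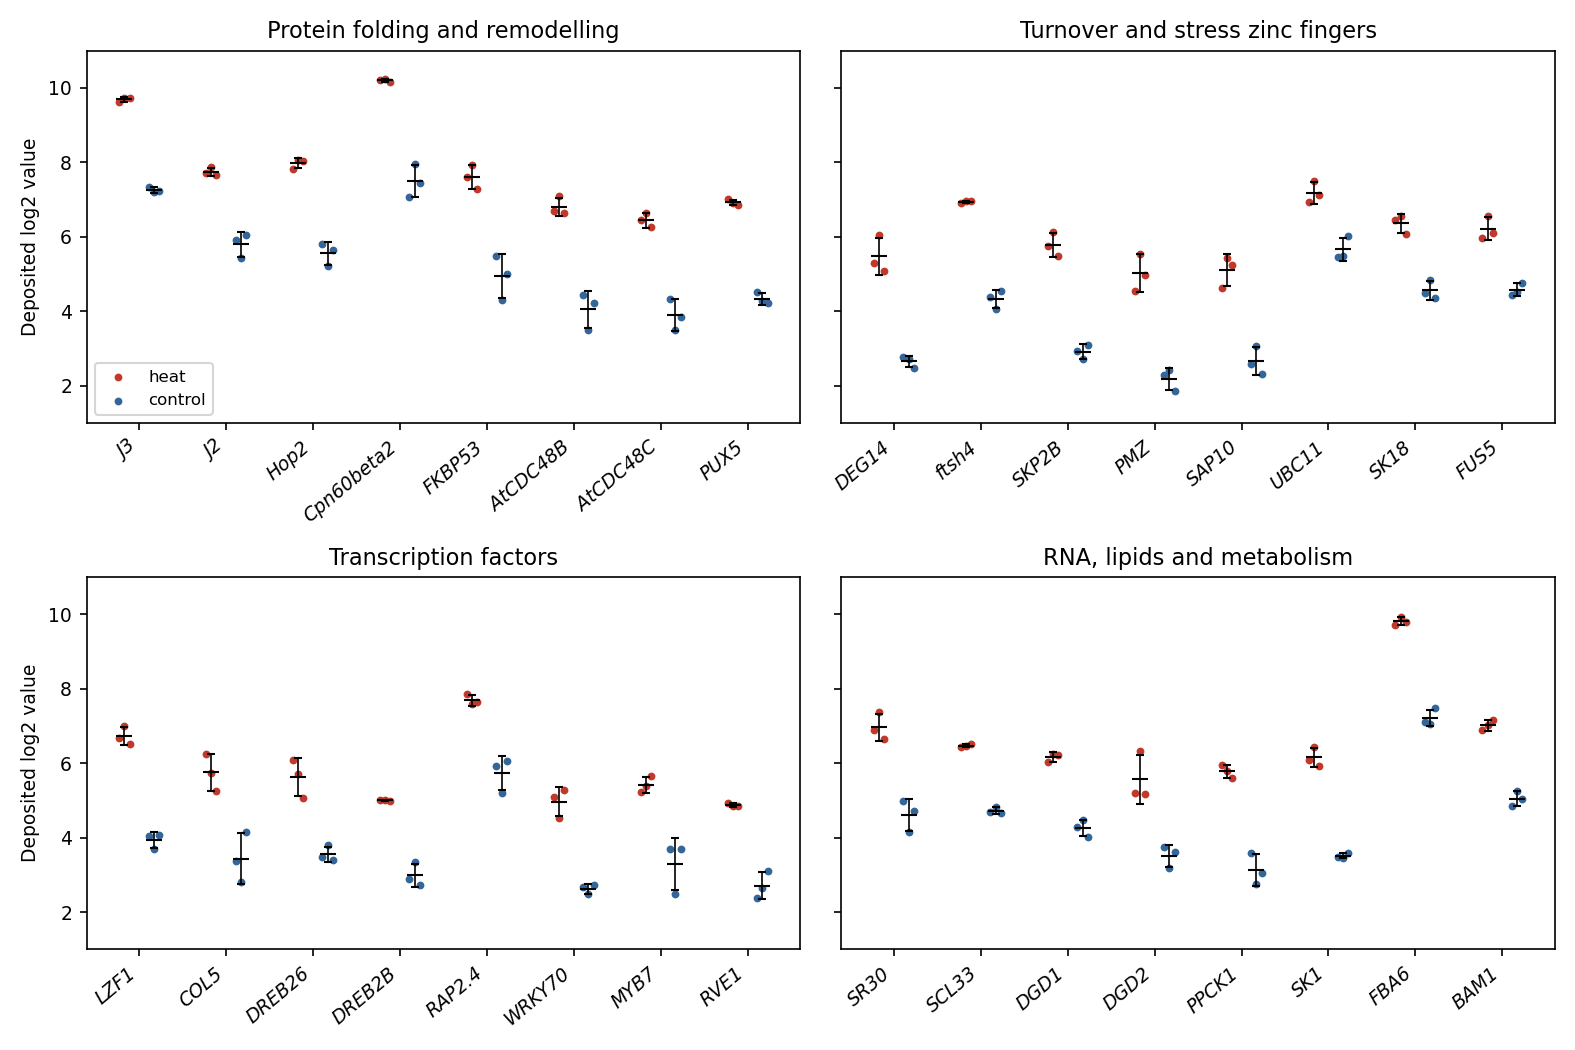
Deposited log2 value (vertical) of 32 members on each of the 3 heat arrays (red) and, to their right, the 3 control arrays (blue), in replicate order within each cluster of points; black lines give mean and SD. The groups do not overlap for any gene, as the choice of members required, and the genes differ in their spread, from DREB2B and ftsh4 with nearly equal heat arrays to DGD2 and COL5 with spread groups.

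Transcription factors of several families were members. LZF1 (BBX22), a B-box factor that promotes seedling responses to light, had 6.69, 6.99 and 6.51 after heat, against 4.05, 3.70 and 4.08 in controls, a difference of 2.79. COL5, a CONSTANS-like B-box factor, had 6.24, 5.75 and 5.25 after heat, against 3.37, 2.79 and 4.15 in controls, a difference of 2.31. The spread of COL5 was wide in both groups. In a list of 25 B-box probe sets, 6 were higher (these 2 members, BBX8, STO, BBX18 and COL2), 1 was lower (BBX14) and 18 did not pass, with a median difference of 0.13. The differences of the non-members were 1.30 for BBX8, 1.25 for STO, 0.90 for BBX18, 0.78 for COL2 and -0.69 for BBX14. Leaving out heat replicate 2 gave 4 higher and 0 lower, leaving out heat replicate 3 also gave 0 lower, and leaving out control replicate 2 gave 3 lower.

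The AP2-domain factors DREB26, DREB2B and RAP2.4 bind promoter elements of drought, cold and heat genes. DREB2B had 5.02, 5.0 and 4.99 after heat, against 2.88, 3.34 and 2.73 in controls, a difference of 2.02. DREB26 had 6.08, 5.70 and 5.08 after heat, against 3.47, 3.79 and 3.40 in controls, a difference of 2.07. RAP2.4 had 7.85, 7.58 and 7.64 after heat, against 5.93, 5.21 and 6.05 in controls, and differed by 1.96. Of the 3 genes, DREB2B alone had heat arrays that nearly coincided. In a list of 58 probe sets gathered by AP2/ERF words, 5 were higher, 5 were lower and 48 did not pass. The lower ones were ERF1-1 (-1.51), TRH1 (-0.97), DEAR3 (-0.97), NAP57 (-0.82) and RAV2 (-0.64). Of these, ERF1-1, TRH1 and NAP57 matched by letters of a name and are not AP2/ERF factors.

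WRKY70, a regulator at the junction of salicylic acid and jasmonate defence, had 5.08, 4.53 and 5.28 after heat, against 2.68, 2.48 and 2.74 in controls. It differed by 2.33, and heat replicate 2 was its lowest heat array. SIB1, a partner of plastid sigma factors that also acts in defence, lay just inside the lower edge with a difference of 1.51. NAC2 had 7.81, 7.95 and 7.90 after heat, against 6.24, 6.10 and 6.43 in controls, a difference of 1.63. In a list of 63 WRKY probe sets, 1 was higher (WRKY70), 5 were lower and 57 did not pass. Of 92 NAC probe sets, 5 were higher, 3 were lower and 84 did not pass.

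MYB7, a repressor-type MYB factor, had 5.22, 5.40 and 5.64 after heat, against 3.70, 2.5 and 3.69 in controls, a difference of 2.12. RVE1, a MYB-like factor close to the clock genes that acts on auxin levels, had 4.94, 4.84 and 4.86 after heat, against 2.38, 2.65 and 3.10 in controls, a difference of 2.17. MYB7 and RVE1 were the only members in a list of 152 MYB and MYB-related probe sets. Of that list 8 were higher, 5 were lower and 139 did not pass. Among the others, EPR1 differed by 5.75, MYB4 by 1.13, MYB77 by 0.98 and MYB34 by -1.54. The count of lower ones was between 0 and 3 without any one of heat replicates 1 to 3 or control replicates 1 and 3, and 8 without control replicate 2. CDF1, a Dof factor that holds back flowering, differed by 2.24, with 5.29, 4.82 and 4.47 after heat, against 2.84, 2.37 and 2.64 in controls.

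Parts of the general transcription machinery were present too. TAF7, a subunit of the TFIID complex that recognises promoters, had 6.66, 6.81 and 6.70 after heat, against 4.06, 3.88 and 3.97 in controls. All arrays of each group lay close together, and the difference was 2.76. SLK2, a SEUSS-like co-regulator, differed by 1.95 and SDG37, a SET-domain protein, by 2.04.

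Members that act on RNA included a pair of SR proteins, serine and arginine rich factors that choose splice sites. SR30 had 6.88, 7.36 and 6.65 after heat, against 4.98, 4.15 and 4.71 in controls, a difference of 2.35. SCL33 had 6.43, 6.46 and 6.52 after heat, against 4.69, 4.82 and 4.67 in controls, a difference of 1.74. The spread of SCL33 was small in both groups, while that of SR30 was larger. The RNA-binding protein emb2444 differed by 1.90, and DRB3, a double-stranded RNA binding protein, by 1.71. ECT6, of the family that reads methylated adenosines in mRNA, differed by 1.52, near the lower edge.

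In a list of 180 splicing and RNA-binding probe sets, 4 were members (SR30, SCL33, emb2444 and DRB3), 7 were higher, 8 were lower and 165 did not pass. The median of the list was -0.08. Of its other probe sets, SR45a differed by 5.04 and SC35 by 0.89, while DRB2, a relative of DRB3, differed by -0.59. The number of lower ones was 24 without control replicate 2 and between 1 and 4 without any other single array.

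The reference table names AT4G29770 and AT5G18040 as HEAT-INDUCED TAS1 TARGET 1 and 2, genes whose transcripts are cut by small RNAs from the TAS1 loci. AT4G29770 had 2.85, 3.78 and 2.89 after heat, against 1.40, 1.70 and 1.54 in controls, a difference of 1.63. AT5G18040 had 5.48, 5.74 and 5.38 after heat, against 3.60, 3.46 and 3.85 in controls, a difference of 1.90. Both were members, although the control mean of AT4G29770 stood only at the 11.4th percentile.

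A few members make membrane lipids. DGD1 and DGD2 make digalactosyldiacylglycerol, a main lipid of chloroplast membranes. DGD1 had 6.02, 6.26 and 6.21 after heat, against 4.27, 4.47 and 4.03 in controls, a difference of 1.91. DGD2 had 5.20, 6.33 and 5.17 after heat, against 3.75, 3.19 and 3.61 in controls, a difference of 2.05. In DGD2 the high value of heat replicate 2 stood more than 1 log2 unit above the other heat arrays. CDS2, which makes the CDP-diacylglycerol precursor of phospholipids, showed the same shape, with 4.47, 5.66 and 4.66 after heat, against 3.24, 2.33 and 2.93 in controls. In a list of 266 lipid and wax probe sets, gathered by words, 3 were higher, 16 were lower and 247 did not pass, with a median of -0.06. DGD1 was the only member in that list, since the words missed DGD2 and CDS2. Omitting control replicate 2 gave 7 higher and 43 lower, while omitting any other array gave 1 to 3 higher and 7 to 11 lower.

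Plastid proteins among the members had varied roles. The probe set shared by FIB and AT4G22240, fibrillins of the lipid droplets of plastids, had 9.51, 9.43 and 9.50 after heat, against 6.71, 7.43 and 7.49 in controls, a difference of 2.27. ELIP2, which binds chlorophyll under stress, had 5.41, 5.70 and 5.44 after heat, against 3.78, 4.35 and 3.48 in controls, a difference of 1.64. CPSUFE, which aids the assembly of iron-sulfur clusters, differed by 1.90.

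Carbon metabolism was represented by several single enzymes. BAM1, a plastid beta-amylase that breaks down starch, had 6.88, 7.02 and 7.17 after heat, against 4.85, 5.25 and 5.05 in controls, a difference of 1.98. The glycolytic enzymes FBA6 (aldolase) and iPGAM2 (phosphoglycerate mutase) were both members. FBA6 had 9.71, 9.93 and 9.80 after heat, against 7.12, 7.06 and 7.47 in controls, a difference of 2.60. Another probe set, shared by FBA6 and AT5G41940, differed by -0.21 with overlapping groups, so the probe sets that read FBA6 disagreed. For iPGAM2 the values were 9.05, 9.16 and 8.97 after heat, against 7.37, 6.98 and 7.32 in controls, a difference of 1.84.

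PPCK1, the kinase that activates phosphoenolpyruvate carboxylase, had 5.96, 5.78 and 5.59 after heat, against 3.58, 2.75 and 3.04 in controls, a difference of 2.65. SK1, a shikimate kinase on the path to aromatic amino acids, had 6.08, 6.45 and 5.93 after heat, against 3.49, 3.46 and 3.59 in controls, a difference of 2.64. Its control arrays lay within 0.2 log2 units of each other.

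Carriers and transporters were members in several compartments. NHX2, a vacuolar exchanger of sodium or potassium for protons, had 5.42, 5.70 and 5.38 after heat, against 3.26, 3.01 and 2.64 in controls, a difference of 2.53. KUP6, a potassium transporter, had 5.94, 6.18 and 5.6 after heat, against 4.62, 3.06 and 4.30 in controls. It differed by 1.91, and control replicate 2 was its lowest array by more than 1 log2 unit. UTR3, which carries UDP-galactose and UDP-glucose into the endoplasmic reticulum, differed by 2.4 and had 7.06, 7.53 and 7.44 after heat, against 5.24, 4.26 and 5.34 in controls. AAC3, an exchanger of ADP and ATP, differed by 1.91 and CYTC-2, a cytochrome c of the respiratory chain, by 1.60. In a list of 984 membrane transporter probe sets, gathered by words, 17 were higher, 30 were lower and 937 did not pass. That list was loose, and its 9 members included cytochrome P450 enzymes.

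Cell wall and hormone genes were few. XTR6 and TCH4 belong to the enzymes that cut and rejoin xyloglucan in the wall, and TCH4 is known for its response to touch. XTR6 had 5.87, 5.41 and 5.22 after heat, against 2.80, 2.71 and 2.43 in controls, a difference of 2.85. TCH4 had 8.17, 7.26 and 7.75 after heat, against 5.97, 4.95 and 6.36 in controls, a difference of 1.97. Gibberellin genes of opposite action were both members. GA3OX1, which makes active gibberellins, had 4.18, 4.65 and 4.35 after heat, against 3.08, 2.94 and 2.56 in controls. GAMT2, which methylates gibberellins, had 3.84, 2.5 and 3.27 after heat, against 1.53, 1.53 and 1.66 in controls. The control mean of GAMT2 stood only at the 12.8th percentile, where a level cannot be told from background. Its heat arrays were widely spread, with an SD of 0.67. ACS7, an enzyme of ethylene synthesis, differed by 1.58 and ABP1, an auxin-binding protein of the endoplasmic reticulum, by 1.79.

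Further members with known roles touched cell survival and detoxification. BI1, which restrains cell death at the endoplasmic reticulum, had 8.74, 8.91 and 8.82 after heat, against 6.96, 6.18 and 6.65 in controls, a difference of 2.23. BIL4, a membrane protein linked to brassinosteroid growth responses, had 8.11, 8.57 and 8.35 after heat, against 5.97, 5.21 and 6.05 in controls, a difference of 2.60. The dehydrin ERD10, which shields membranes and proteins during drying, had 8.57, 9.19 and 9.05 after heat, against 7.52, 7.35 and 7.38 in controls, a difference of 1.52. Cytochrome P450 enzymes contributed CYP81D11 (2.06), CYP71B2 (1.77) and CYP72A8 (1.52). In a list of 230 probe sets gathered by P450 words, these 3 alone were higher, 5 were lower and 222 did not pass. The lower ones included the cyclophilin ROC3 (-0.50), which is no P450 and matched by letters of a name. A list of 196 probe sets gathered by words for redox and detoxification enzymes held 0 members, with 5 higher and 2 lower. Members without a symbol or title could not be found by these words, so redox genes may still be among the members.

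Among the 54 genes with no symbol of their own were some of the largest differences. AT5G11680 had 8.98, 9.25 and 9.21 after heat, against 6.27, 6.28 and 6.18 in controls. Its difference of 2.91 was the largest of the members that matched the reference, and its gap between groups of 2.71 was the widest of all members. AT1G58170 differed by 2.85, AT3G56250 by 2.84, AT5G13200 by 2.83 and AT3G62260 by 2.78. AT4G14270 differed by 2.67 and AT1G52870 by 2.31.

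For several members the array also read a relative of the same name. These relatives were picked by name once the members were known, and the difference between a member and its relative was not tested. AtCDC48B (2.75) and AtCDC48C (2.56) stood beside CDC48, whose difference of 0.31 did not pass the limma threshold (adjusted p = 0.168). Cpn60beta2 (2.71) stood beside CPN60B at -0.53 (limma adjusted p = 0.0844) and Cpn60beta3 at 0.17 (limma adjusted p = 0.803). Hop2 (2.42) lay between Hop1 at -0.04 (limma adjusted p = 0.89) and Hop3 at 7.32 (limma adjusted p = 7.83e-07).

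Other members stood next to a strongly induced relative. DREB2B (2.02) had the relative DREB2A, a central activator of heat and drought genes, at 7.36 (limma adjusted p = 5.82e-06). ELIP2 (1.64) had the relative ELIP1 at 5.61 (limma adjusted p = 3.8e-07). In further families the relative was lower or did not pass the threshold. AAC3 (1.91) stood beside AAC1, which was lower at -0.52 (limma adjusted p = 0.0383), and AAC2 at -0.62 (limma adjusted p = 0.306). A second probe set, shared by AAC1 and IDD14, was at -0.67 (limma adjusted p = 0.106). The AAC1 call was past the threshold without control replicate 2 and was lost without any other single array. AAC2 was also lower and past the threshold without control replicate 2. NHX2 (2.53) stood beside NHX1 at -0.60 (limma adjusted p = 0.154), which was lower and past the threshold without control replicate 2.

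Differences below the threshold in either direction were also found for PPCK2 at -0.07 beside PPCK1 (2.65), for SK2 at 0.05 beside SK1 (2.64) and for the protease gene ftsh3 at -0.34 beside ftsh4 (2.61). The same held for CYTC-1 at -0.25 beside CYTC-2 (1.60) and for GA3OX2 at 0.19 beside GA3OX1 (1.53). The limma adjusted p-values of these 5 relatives lay between 0.257 (CYTC-1) and 0.887 (SK2). J3 and J2, DGD1 and DGD2, PMZ and SAP10, and AT4G29770 and AT5G18040 were families with more than 1 member.

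**Figure D3:**
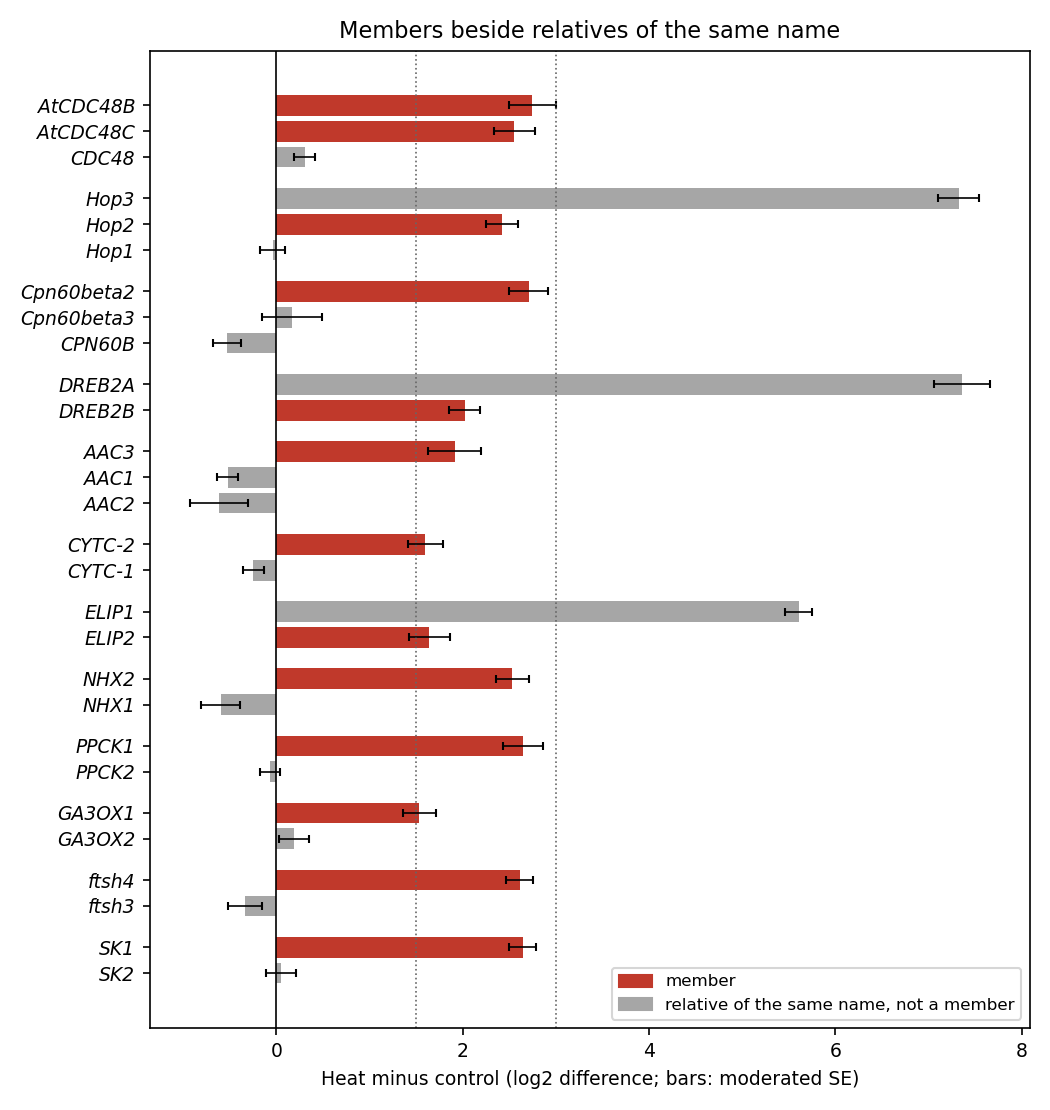
Heat minus control (horizontal, log2 difference with moderated standard error) for 13 members in red and, in grey, relatives of the same name read by a probe set of their own, grouped by family; dotted lines mark 1.5 and 3. Hop3, DREB2A and ELIP1 lie between 5.61 and 7.36, and the other relatives lie between -0.62 and 0.31.

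The 19 members with a gene ID outside the reference table included many of mitochondrial type. In 8 of them the authors' symbol named a mitochondrial gene or the gene ID was shared with such a probe set, and 7 more joined an unmatched ID with a chromosome 2 locus starting with AT2G07. The locus test of the rule could not be applied to IDs with no match. The probe set nad5, for a subunit of respiratory complex I, had 4.58, 3.79 and 4.23 after heat, against 1.66, 1.99 and 2.08 in controls, a difference of 2.29. The probe set cox2, for a subunit of cytochrome oxidase, had 5.0, 4.64 and 4.70 after heat, against 2.74, 2.32 and 3.72 in controls, a difference of 1.85. In nad5 heat replicate 2 was the lowest heat array, and in cox2 control replicate 3 stood well above the other control arrays.

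AT2G07698, the largest of the 19, had 7.65, 7.05 and 7.53 after heat, against 4.14, 3.88 and 5.29 in controls, a difference of 2.98. Complex I was also read by nad1 (2.01), NAD9 (2.17) and NAD4L (1.82), and ribosomal proteins by the probe set of rpl16 and rps3 (1.94). NAD4L varied most on the heat arrays, with 4.92, 3.25 and 4.41, against 2.02, 2.62 and 2.5 in controls. PAO2, a polyamine oxidase gene of chromosome 2 with 1 unmatched ID on its probe set, lay at the lower edge with a difference of 1.5. Leaving out these 19, the 1 without a gene ID and the 4 named as heat shock proteins by the reference left 126 members.

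The arrays of a group did not rank alike in these kinds of member. In the 130 members whose gene IDs all matched, heat replicate 2 was the highest heat array in 92 and the lowest in 13. In the 19 members with an unmatched ID, heat replicate 2 was the highest in 0 and the lowest in 16, and heat replicate 1 was the highest in 16. Among all probe sets, heat replicate 2 was the highest heat array in 33.7% and the lowest in 34.7%. Control replicate 2 was the lowest control array in 88 of the 150 members (58.7%) and in 41.3% of all probe sets. These rankings come from single arrays shared by every member, and whether they reflect the plants or the handling was not tested.

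The same-numbered pairs show the pattern in log2 units, although same-numbered arrays did not vary together and a pairing of samples was not established. The median difference of the 130 was 2.0 in pair 1, 2.42 in pair 2 and 1.92 in pair 3. For the 19 it was 2.41 in pair 1, 1.80 in pair 2 and 1.79 in pair 3. Over all 150 members, 140 differed by at least 1 in each pair, and single pairs lay between 0.44 and 3.61. No pair can differ by less than the gap between groups, which was at least 1 for 132 members. The count of 140 therefore largely restates the choice of members. The 13 matched members with their lowest heat value on replicate 2 included TCH4, WRKY70, RAP2.4, SIB1, GAMT2, RVE1, CYP72A8 and AT4G27280.

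**Figure D4:**
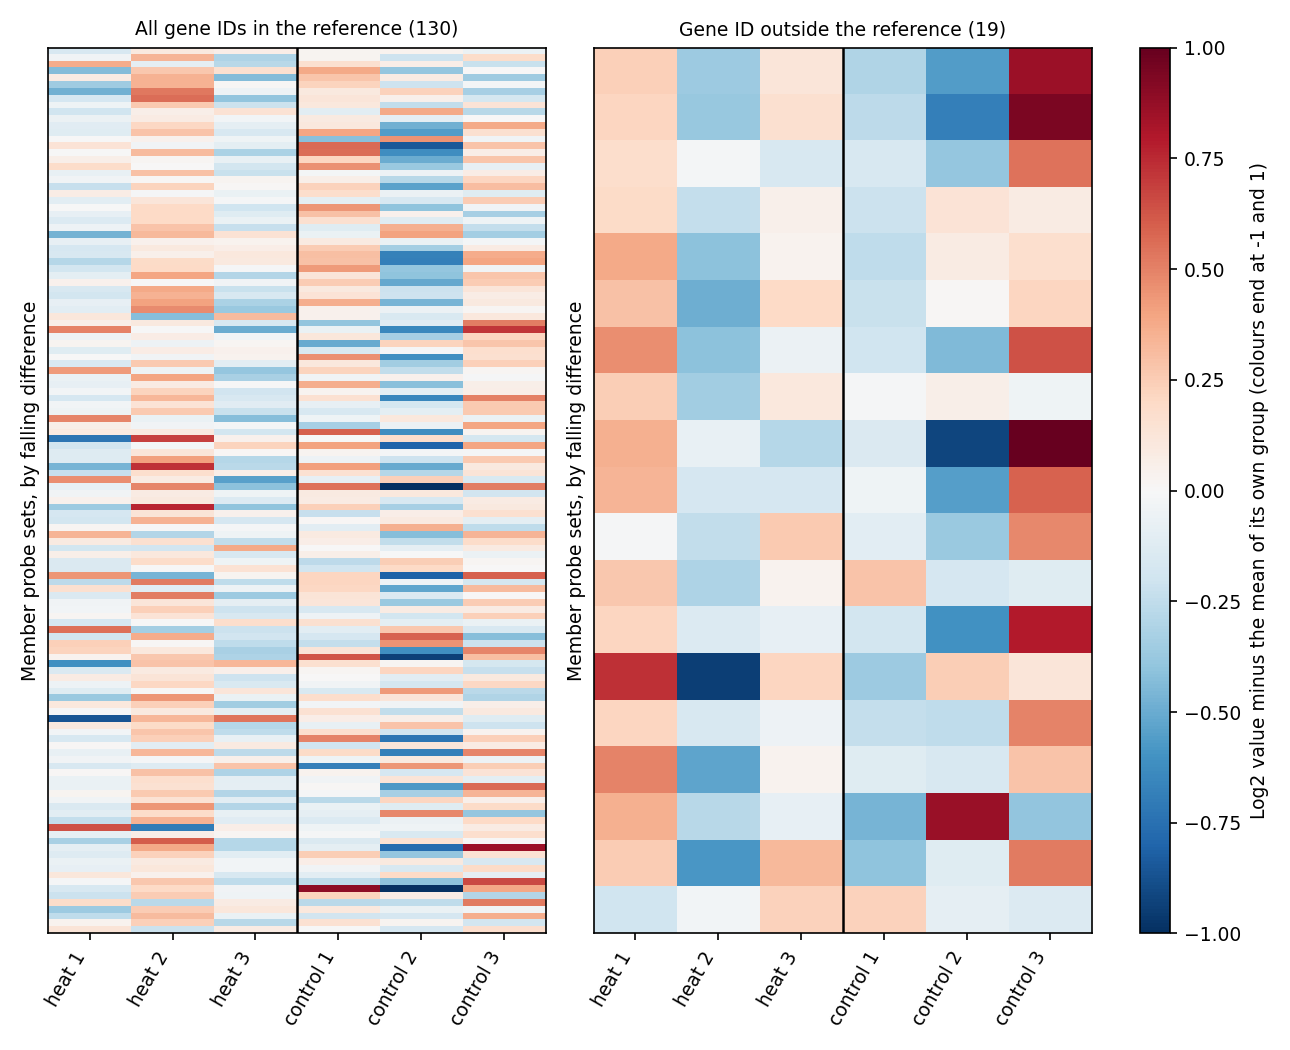
Each row is a member and each column an array, heat replicates left of the black line and control replicates right of it; colour is the log2 value minus the mean of its own group. In the 130 matched members (left panel) the heat replicate 2 column is mostly red, and in the 19 members with an unmatched gene ID (right panel) it is blue or near white while heat replicate 1 is mostly red.

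Values just inside and just outside the limits show how the set was cut. PAO2 (1.5), SIB1 (1.51) and ECT6 (1.52) were inside the lower limit. AT2G23110, AT4G30390 and AT1G11660, each at 1.49, were outside it. AT2G07698 (2.98), AT5G11680 (2.91) and SKP2B (2.87) were inside the upper limit. PRR7 (3.03), a clock pseudo-response regulator, AT2G27580 (3.03) and AT1G66510 (3.04) were outside it.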

How the data were processed

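Deposited log2 values of 6 Affymetrix arrays (3 dark heat, 3 dark control) were used as the authors gave them. Per the submitters' processing notes RMA was used, in a version not given in the sources used here. In addition, the authors' second table held the same log2 values (largest gap 0), gene IDs, symbols and titles, and, per the file headers, linear ratios of same-numbered arrays, used here only as an alternative. Of 22810 probe sets, 64 controls were left out. Gene IDs were matched to the TAIR10.1 gene table. Percentiles of levels and the choice of the brightest probe set of a locus order probe sets on the scale of the array only and do not compare transcript amounts.

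The contrast was fitted over 22746 probe sets with limma 3.58.1 in R 4.3.3 (lmFit, eBayes, group only, two-sided, Benjamini-Hochberg, adjusted p under 0.05) and tested on simulated data. Its p-values reflect only how these arrays vary, which may be technical. The number of arrays limits the precision. The members and lists were chosen with earlier results of these data known. Named by rule were the 20 largest differences, up to 4 members of lists with at least 3, those at both limits, the brightest and dimmest, neighbours, those with unequal pairs, and 4 genes from earlier results. All other genes named were chosen after their values were seen, for what their annotation says. Alternatives were scaling, a filter on dim probe sets, moderation with a trend, the replicate block, labelled age, each array left out, and changes to the rule. Motif counts in promoters were not run, and sequences and coordinates were not used here.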

Additional observations from a re-analysis of the deposited data

How the results depend on the processing

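The number of probe sets that met the rule was 171, 163 and 171 under centring, quantile normalization and cyclic loess, 149 without dim probe sets, 157 with medians, 125 as genes, 150 without the overlap condition and 126 with stricter exclusions, which were chosen after seeing the data. It lay between 149 and 161 with 1 array left out, and 117 of the 150 members met the rule whichever array was left out. For 60 named members, 600 differences under alternatives ranged from 1.23 to 3.07, with 0 reversed and 0 changed by over 1.5 times. No reversal was possible with 1 array left out, since the choice put every heat array above every control array. The authors' ratios compare these same arrays and could not reverse either. The absence of reversals there restates the choice and is no support for it.

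The limma calls of all probe sets were less stable. With 1 array left out, 371 to 1008 were higher and 275 to 2719 lower, the extremes above 533 and 909 coming without control replicate 2 (1008 and 2719). Members past the threshold then numbered 126 to 150. With labelled age as a covariate, 129 were higher, 10 lower and 21 members past the threshold, in a fit where every heat age is above every control age. Counts of lower ones in the gene lists moved with scaling too, to 1 of the chaperone-related list with centring or cyclic loess (2 as deposited), to 4 and 5 of the splicing list (8), and to 2 of the MYB list with quantile normalization or cyclic loess (5). The calls over all probe sets and the members past the threshold kept within 1.5 times under the 3 scalings, the dim filter and the trend. Same-numbered arrays deviated in opposite directions (correlations -0.26, -0.24 and -0.24). For the other combinations of a heat and a control array the correlations lay between -0.02 and 0.26. Deviations from a mean of 3 arrays are tied to each other, so these values cannot decide whether samples were paired. With the replicate block, 396 were higher, 410 lower and 139 members past the threshold. With cyclic loess or centring the median over all probe sets was 0.00 or 0.10. Promoter motif windows were not run. No depth applies to arrays, and with no detection call the dimmest control values only bound a difference.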

Other observations

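Of 198 direct neighbours of member genes that were read by a probe set of their own, 4 (2.02%) were members, against 0.618% of all genes read by a probe set of their own. These 4 are both sides of the pairs TAF7 with SCL33 (2.76 and 1.74) and AT1G62730 with Hop2 (1.99 and 2.42). The median difference of the 198 was 0.01, but some neighbours were far from it. HSFA2 beside ftsh4 differed by 7.64, Hsp70b beside AT1G16040 by 7.71 and HSP21 beside AT4G27680 by 7.82. In the other direction, AT5G02480 beside Hsp70-2 differed by -1.60. Whether a neighbour bears on the difference of a member was not tested. Members per chromosome numbered 34, 9, 26, 24 and 32 on chromosomes 1 to 5 among the 125 with 1 locus, which is 0.633%, 0.281%, 0.640%, 0.793% and 0.673% of the probe sets with 1 locus on each. AT1G16040 was read by a second probe set with a difference of 1.22 and no overlap between groups, below the limit of 1.5. The median gene length was 2132 bases for member genes and 2287 bases for all genes read by a probe set of their own.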
